A study of Mus musculus with 7 samples.

Results

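Simple tandem repeats, also called microsatellites, are runs of a short unit repeated head to tail, and the reads described here are those that carry such a run. Among reads of 26 bases or more, a read was chosen when a perfect repeat of a 2, 3 or 4 base unit covered 20 or more consecutive bases of it, a stretch called a tract below. There were 256291 such reads of 31529044 searched, or 0.813% (exact Clopper-Pearson 95% interval 0.810 to 0.816), in 104503 distinct sequences of 6331745. Units were grouped up to rotation and the strands were kept apart, which gives 86 possible units. Each read was placed in the unit of its longest tract, and 507 reads (0.198%) held tracts of more than 1 unit. Telomere hexamers were left out, and 0 of the chosen sequences also held 20 bases of the telomere repeat.

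The study sequenced RNA that came down with Ezh2, the catalytic subunit of Polycomb repressive complex PRC2, from nuclear lysates of mouse embryonic stem cells cultured with LIF, after cDNA synthesis by template switching. The labels list 7 libraries. Of these, 5 used anti-Ezh2 antibody on cells of strain 129X(M.castaneusX129) without a labelled mutation, among them a technical and a biological replicate, and 2 of those 5 sequenced the original sample and the biological replicate again, over 2 lanes each. A further library used the same antibody on Ezh2 null cells of strain M.musculus, and the last used normal rabbit IgG on 129X(M.castaneusX129) cells. All counts come from 1 table of distinct read sequences, which no label ties to a library. There are therefore no replicates, no comparison with IgG or Ezh2 null, and no value here is an enrichment. The intervals describe counting error alone. They treat every read as a separate molecule, which copies made by PCR are not. Of the searched reads, 6252281 had 36 bases and 24772940 had 40 bases, and values for these read lengths are set side by side where they differ. The 10 stem cell markers examined each had 50 or more RNA-sense reads, from 207 for Sox2 to 66275 for Lefty2. So did the 6 fibroblast and matrix genes, from 364 for Thy1 to 4832 for Col1a2. The share of all genes with 50 or more such reads was not counted, so these lists do not identify the cells. Antisense reads were as many or nearly so for Pou5f1 (442 sense, 446 antisense) and Esrrb (248 and 232), many for Nanog (20405 and 14070), and more than the sense reads for Thy1 (364 and 971).

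Because DNA has 2 strands, every TG repeat in the genome is a CA repeat on its other strand, and only the direction of transcription decides which of them appears in RNA. Repeat units of A and G alone are called purine-only, and their complements, of C and T alone, are pyrimidine-only. PRC2 is known to bind RNA with a preference for G-rich sequence, and repeats of TG and GA are among the most frequent microsatellites of rodent genomes. The direction of the reads was checked with 24-base words from base 7 in 6 abundant mRNAs. The words were the reverse complement of the mRNA in 96.7% of reads for Actb, 97.1% for Eef2, 97.7% for Hsp90ab1, 99.7% for Serbp1 and 99.8% for Eif3a, but in 49.8% for Ncl, with 12257 reads against 12347. The pooled share of 98.2% rests mostly on Serbp1, with 717027 of 1116940 such reads. Units are therefore named for the RNA, so that a read of CA repeats stands for RNA with TG repeats.

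The most read sequences of the 12 units with most reads show what the tracts look like and how far they fill a read. They are printed 5′ to 3′ as deposited, that is, as the reverse complement of the RNA. The tract is in capitals.
RNA unit TG, 1958 reads: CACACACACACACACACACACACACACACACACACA
RNA unit GA, 1808 reads: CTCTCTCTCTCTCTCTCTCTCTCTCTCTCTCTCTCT
RNA unit GAAA, 492 reads: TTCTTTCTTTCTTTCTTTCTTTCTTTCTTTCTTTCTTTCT
RNA unit CA, 68 reads: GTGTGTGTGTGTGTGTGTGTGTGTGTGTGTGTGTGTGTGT
RNA unit TC, 320 reads: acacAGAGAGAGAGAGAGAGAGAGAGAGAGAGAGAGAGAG
RNA unit GATA, 388 reads: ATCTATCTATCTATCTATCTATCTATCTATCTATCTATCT
RNA unit GAA, 101 reads: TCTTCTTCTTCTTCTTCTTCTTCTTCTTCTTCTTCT
RNA unit ACAG, 30 reads: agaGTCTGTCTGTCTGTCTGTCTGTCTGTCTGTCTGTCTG
RNA unit GGA, 32 reads: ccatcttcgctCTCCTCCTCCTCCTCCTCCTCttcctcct
RNA unit GGAA, 153 reads: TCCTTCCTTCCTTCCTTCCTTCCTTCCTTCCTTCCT
RNA unit GTTT, 168 reads: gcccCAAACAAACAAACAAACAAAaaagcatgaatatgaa
RNA unit AAAC, 57 reads: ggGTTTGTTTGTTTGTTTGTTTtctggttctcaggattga

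In 9 of these sequences the tract fills the read from base 7 to the last base, and in TC and ACAG 4 and 3 bases precede it. Such reads hold little or no sequence that could tell their place of origin. The GGA read, the GTTT read and the AAAC read leave the repeat again, and the lower-case bases are their flank. The most read sequence of TG made up 1.69% of the TG reads and that of GA 3.45% of the GA reads, so that neither count rests on 1 sequence. Of all chosen sequences, 68.4% were read once.

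TG repeats were the most frequent RNA repeats, followed by GA repeats. TG had 115894 reads, which was 45.2% of all tract reads (45.03 to 45.4), and GA had 52464, or 20.5% (20.3 to 20.6). These units together made up 65.7% and the top 5 units, with GAAA, CA and TC, 80.5%. By unit length, 2-base units held 74.7% of tract reads, 4-base units 19.4% and 3-base units 5.91%. Of the 86 units, 76 had a read and 51 had at least 50. The 20 units that contain a CG step, which is rare in mammalian genomes, had 164 reads in all, of which 63 were CGTG. Annotated transcripts do hold such tracts, with 200 of CGG and 111 of CCG among 13291 tracts of 20 or more bases. These units had 27 and 7 reads. The plain CG unit had 11 reads, and the 10 units with 0 reads allow up to 3 reads each. Units of A and T alone had 4292 reads, of which 1033 were AT.

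The strands of a unit were far from even. RNA with TG repeats had 115894 reads and RNA with the complementary CA repeats 12111, so that TG took 90.5% of the pair (90.4 to 90.7). It took 91.9% in 36-base and 90.1% in 40-base reads. GA repeats had 52464 reads against 9921 for TC, or 84.1% (83.8 to 84.4). The GA share was 93.6% in 36-base reads, with 19890 GA and 1350 TC reads, and 78.7% in 40-base reads, with 31633 GA and 8538 TC reads. The direction was the same at both read lengths, while the TC share was larger in 40-base reads. Counting each sequence once gave 87.7% for TG and 89.8% for GA. Counting once each distinct 10-base word that follows the tract in the deposited read, a rough count of places of origin, gave 89.9% and 92.8%. In the RNA this word precedes the tract, and it is called the word after the tract below. There were 10862 different words for TG tracts and 4104 for GA tracts.

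Over all reads, each purine-only unit outnumbered its complement. The 6 purine-only units had 80285 reads, or 31.3% of tract reads, and their pyrimidine-only complements 11012, which puts 87.9% on the purine side (87.7 to 88.1). Without GA and TC the purine side held 96.2%, from 27821 against 1091 reads. GAAA had 15985 reads and TTTC 569, so that GAAA held 96.6% of the pair. GAA had 5027 reads and TTC 187, which is 96.4%. GGA, with 3341 reads and 125 of TCC, also stood at 96.4%, and GGAA, with 3278 and 149 of TTCC, at 95.7%. In these 4 units the purine share was 98.8% to 99.2% in 36-base reads and 91.3% to 96.02% in 40-base reads. AGGG had 190 reads and CCCT 61, or 75.7%. AGGG was the exception among purine units, because its share of 93.6% among 36-base reads fell to 35.1% among those of 40 bases (interval 24.5 to 46.8), from 160 against 11 and 27 against 50 reads.

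**Figure D1:**
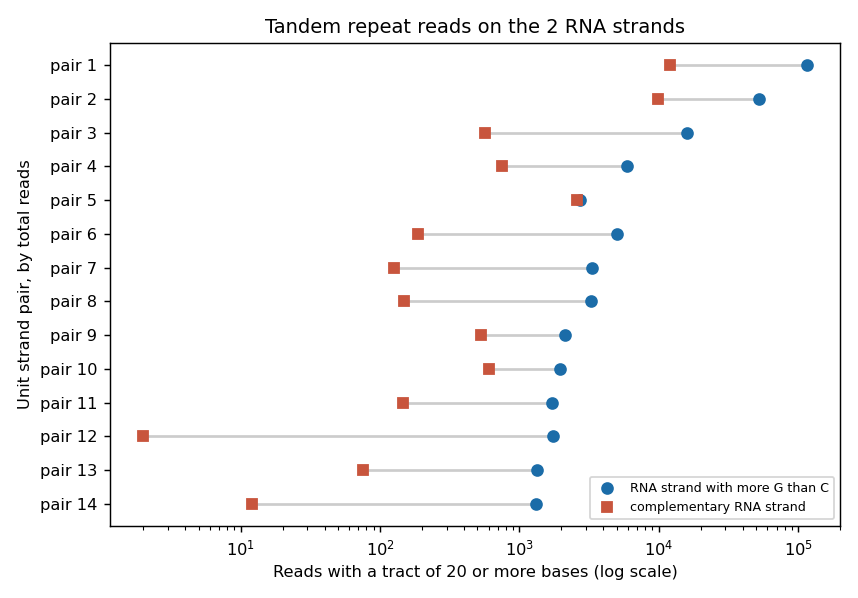
Reads with a tract on each RNA strand (horizontal axis, log scale) for the 14 strand pairs with most reads among those in which the strands differ in G and C; circles are the strand with more G than C and squares its complement. By number, pair 1 is TG with CA, pair 2 is GA with TC, pair 3 is GAAA with TTTC, pair 4 is GATA with TATC, pair 5 is GTTT with AAAC, pair 6 is GAA with TTC, pair 7 is GGA with TCC, pair 8 is GGAA with TTCC, pair 9 is GTT with AAC, pair 10 is ATGT with ACAT, pair 11 is ATGG with ATCC, pair 12 is AGGT with ACCT, pair 13 is ATG with ATC, pair 14 is AGT with ACT. In pair 5 alone the symbols nearly coincide, at 2734 and 2587 reads.

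Units that are not purine-only shared the skew where 1 strand has more G than C. GATA repeats had 5874 reads and TATC 747, or 88.7% (87.9 to 89.5). ATGG had 1704 reads and ATCC 147, ATG had 1334 and ATC 76, AGT had 1305 and ACT 12, and AGGT had 1732 and ACCT 2. GTT, at 80.02% of its pair, and ATGT, at 76.6%, were less skewed. GTTT and AAAC were the pair closest to even among the large ones, at 2734 and 2587 reads. The GTTT share was 51.4% by reads, 40.05% by distinct sequences, 32.8% in 36-base reads and 53.6% in 40-base reads, which puts it on either side of 50% according to what is counted.

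The rule that orders strands by G and C was noticed after the counts had been seen and is a description. Of 29 strand pairs with at least 50 reads, 28 had a strand share whose interval left out 50%, which is 96.6%. Of the 23 pairs of these 29 in which the strands differ in G and C, 22 had an interval above 50% on the strand with more G over all reads, and the interval of ATTG with its complement, at 51.3%, held 50%. Among 6-base words in reads without a tract, the strand with more G was above 50% in 1234 of 1586 such pairs, or 77.8%. This is a count of shares without intervals, by which all 23 tract pairs were above 50%, the lowest at 51.3%. No interval is given for the words, so the counts of 28 and 22 pairs have no background here. By read length or by sequence some tract pairs fell below 50%. These were AGGG in 40-base reads and GTTT in 36-base reads and by sequence, as given above, AGGC at 42.5% in 40-base reads (27.04 to 59.1) and AGTT at 46.7% in 36-base reads (21.3 to 73.4). The median share of the strand with more G over the 23 pairs was 88.7%. Units with G and no C held 84.7% of tract reads, units with C and no G 11.0%, and units with both 2.67%. Of the 6 pairs with equal G and C, the strand with more purines had more reads in 4 and fewer in 1, and in AGTC, with 66 reads against 44 for ACTG, the strands hold equal purines. ACAG had 3941 reads against 2044 for CTGT, AAAT 1893 against 786 for ATTT, AGC 219 against 46 for CTG, and AAGC 133 against 29 for CTTG. ATT, the strand with fewer purines, had 325 against 176 for AAT.

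**Figure D2:**
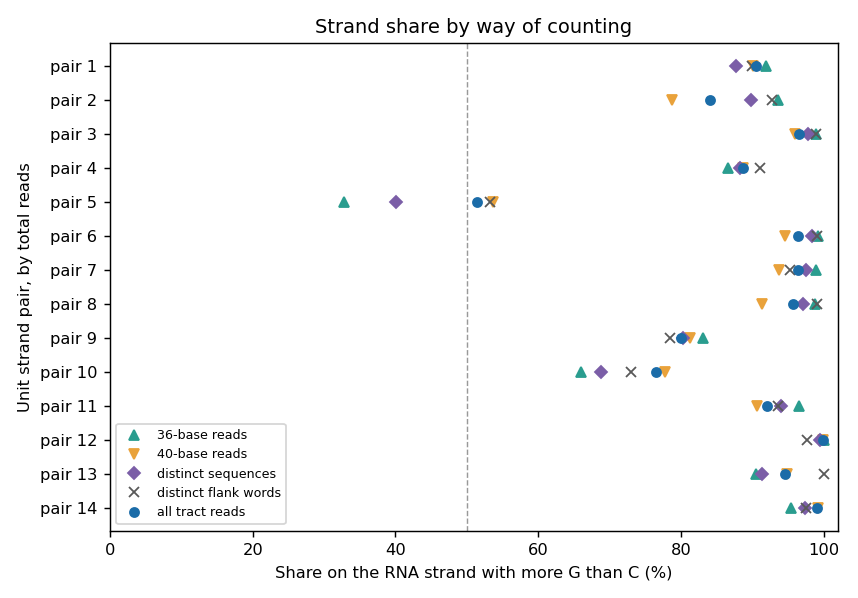
Share of reads on the RNA strand with more G than C (horizontal axis, in percent) for the same 14 strand pairs, with symbols for all reads, 36-base reads, 40-base reads, distinct sequences and distinct 10-base words after the tract; the dashed line is 50%. All symbols lie to the right of the line except those of pair 5, GTTT/AAAC, where 36-base reads (32.8%) and distinct sequences (40.05%) lie to its left.

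Reads without a tract also leaned to G. From base 7 on, the RNA of all searched reads held 25.95% G and 18.7% C. Among 2016 pairs of a 6-base word and its complement, counted in searched reads without a tract, the stronger strand exceeded the other over 4-fold in 310, or 15.4%. Among the 29 tract pairs it did so in 18, or 62.1%. Over the 1586 word pairs that differ in G and C, the strand with more G had a median share of 61.8%, with the middle 90% from 24.2% to 88.2%, and over the 63 purine-only word pairs a median of 79.1%. The 6-base words of the leading repeats stood near the top of that range also outside tracts, at 85.5% for TGTGTG and 87.2% for GTGTGT, against 90.5% for TG tracts, and at 84.1% for AGAGAG and 84.7% for GAGAGA, against 84.1% for GA tracts. Over all reads, the GA lean was thus as large outside tracts as within them. Within tracts the GA share was 89.8% by distinct sequence and 92.8% by the word after the tract. It was 93.6% in 36-base and 78.7% in 40-base reads, and no such split is given for the 6-base words. The words are not independent of each other, and reads without a tract can hold shorter or interrupted repeats. Whether the skew arises in the cells, in the immunoprecipitation or in library preparation was not tested.

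Most tracts were shorter than the read. Over all units, 19.1% of tract reads were repeat from base 7 to the last base. That share was 19.5% for TG, 18.6% for GA, 24.1% for GAAA, 31.1% for GATA and 42.2% for GAA, against 5.60% for GGA and 1.39% for AAAC. In 40-base reads, 45.8% of TG tracts and 44.7% of GA tracts had 20 to 24 bases. The CA and TC strands of the same repeats had 38.96% and 29.9% in that class. GAA differed in shape, with 34.7% of its tracts at 35 to 39 bases, and 73.1% of ACAG tracts had 20 to 24. A tract that reaches the end of a read may continue beyond it, so these lengths are lower bounds.

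**Figure D3:**
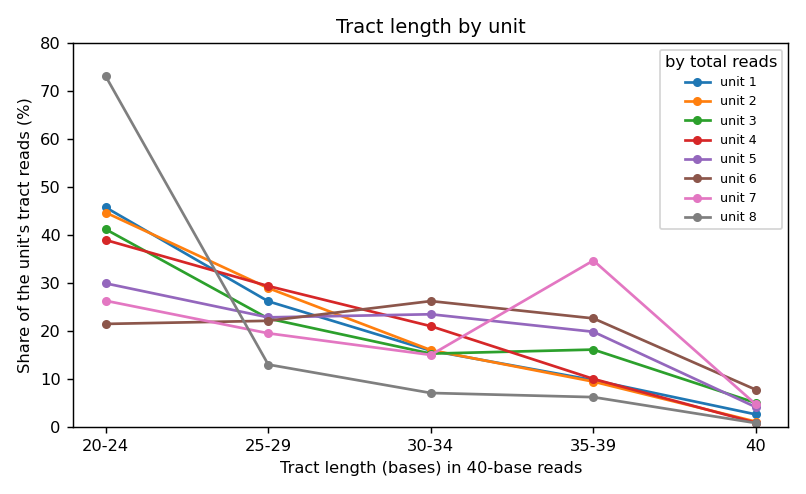
Share of each unit's tract reads of 40 bases (vertical axis, in percent) by tract length class in bases (horizontal axis), with 1 line for each of the 8 units with most reads. By number, unit 1 is TG, unit 2 is GA, unit 3 is GAAA, unit 4 is CA, unit 5 is TC, unit 6 is GATA, unit 7 is GAA, unit 8 is ACAG. Unit 8 starts highest, at 73.1% with 20 to 24 bases, and unit 7 peaks at 35 to 39 bases with 34.7%.

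The first 6 bases of a read often left the repeat even where all later bases kept to it. In 49041 reads that were repeat from base 7 to the end, base 1 departed from the repeat in 37.5%, base 3 in 27.9% and base 6 in 14.04%. TG reads departed in 34.1% at base 1 and GA reads in 35.6%. At base 2 the GA reads departed in 41.7% and the TG reads in 28.9%. In GA reads the departures at base 3 were 28.7% in 36-base and 52.02% in 40-base reads. Such bases may be flank or an adjoining repeat, as in the TC read printed above, or errors, and these were not separated. When tracts were searched from base 7 only, 0.671% of searched reads qualified.

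Compound repeats, in which a second repeat of 10 or more bases of another unit adjoins or follows the tract in the same read, made up 6.74% of tract reads (6.64 to 6.84), or 17268 reads. The most frequent was a TG tract with a GA repeat, in 3052 reads, and a GA tract with a TG repeat followed with 1616. The mixed arrangement in which G lies on 1 strand in the first part and on the other in the second was also seen. A TC tract with TG had 1574 reads, a TG tract with TC 1138, and a GA tract with CA 1048. Here the unit of the longer part sets the class, so that the 1574 reads count as TC although they hold TG too.

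Where tract reads matched annotated transcripts, most were on the repeat strand with more G, whether that strand was sense or antisense to the gene. From base 7 on, 6.01% of tract reads matched transcripts of 1 gene only without a mismatch in GENCODE M21 (GRCm38), 44.9% matched several genes or strands and 49.1% matched none. The search did not extend to introns or to intergenic sequence, so a match to 1 gene need not be unique in the genome. The 15408 reads given to 1 gene lay at tracts of 2519 genes, and 57.2% of them were in sense. For the leading units the transcripts themselves are nearly balanced, with 2463 TG and 2329 CA tracts of 20 or more bases and 755 GA and 937 TC tracts. They hold 1623 purine-only against 1746 pyrimidine-only tracts (48.2% purine-only). Some pairs lean to the strand with more reads, with 161 GAA and 72 TTC tracts, 233 GGA and 141 TCC, and 326 AGC and 117 CTG. Others lean away from it, with 141 GGAA and 214 TTCC tracts, and 143 GATA and 204 TATC.

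At tracts where the transcript carries TG, 3170 reads were sense and 403 antisense, so that 88.7% were sense (87.6 to 89.7). At tracts where the transcript carries CA, 430 were sense and 2495 antisense, so that 14.7% were sense (13.4 to 16.04). In both cases the TG strand had more reads. TG reads were seen at 716 tracts in the first case and 693 in the second, and CA reads at 122 and 128. GA tracts gave 1412 sense and 164 antisense reads (89.6% sense), and TC tracts 208 sense and 1496 antisense reads (12.2%). GAAA tracts gave 97.8% sense and TTTC tracts 9.35%, and GATA tracts gave 240 sense and 0 antisense reads where TATC tracts gave 12 and 193. Over all units in which the strands differ in G and C, reads were 91.0% sense where the transcript carries the strand with more G (90.3 to 91.6) and 15.4% sense where it carries the other (14.5 to 16.3). These shares were 95.1% and 10.6% in 36-base reads and 89.8% and 16.9% in 40-base reads. The pair GTTT and AAAC went the other way, with 43.5% sense reads at GTTT tracts and 91.1% at AAAC tracts, from 124 reads each. The interval at GTTT tracts, 34.7 to 52.7, holds 50%. AAC tracts, with 70 sense and 70 antisense reads, were even.

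**Figure D4:**
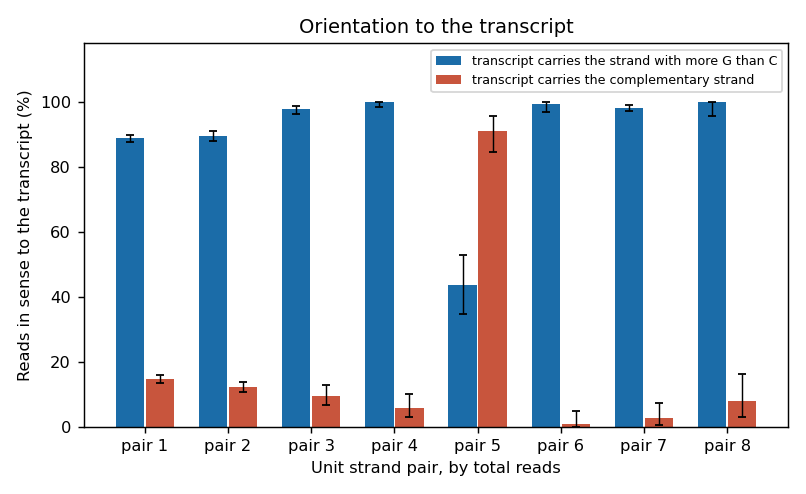
Share of reads in sense to the transcript (vertical axis, in percent, with exact 95% intervals) for the first 8 strand pairs, at tracts where the transcript carries the strand with more G than C (left bars) and where it carries the complement (right bars). By number, pair 1 is TG with CA, pair 2 is GA with TC, pair 3 is GAAA with TTTC, pair 4 is GATA with TATC, pair 5 is GTTT with AAAC, pair 6 is GAA with TTC, pair 7 is GGA with TCC, pair 8 is GGAA with TTCC. Left bars stand at 88.7% or more and right bars at 14.7% or less except in pair 5, where they are 43.5% and 91.1%.

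Counted by tract, the strand with more G led in most. Of 723 tracts with at least 5 reads, the strand with more G led in 630, or 87.1% (84.5 to 89.5), and was the only strand seen in 545. The other strand was the only one seen in 53. Most tracts thus reached 5 reads through the strand that led, so the count by tract describes the same lean and gives it no separate support. It led in 339 of 379 where the transcript carries that strand and in 291 of 344 where the transcript carries the complement. For TG and CA the numbers were 176 of 196 and 142 of 169, and for GA and TC 83 of 92 and 83 of 90. Only 221 tracts of any depth had reads in both orientations. The reads were spread thinly, with 13.9% at the 10 most read tracts, and 1420 of 3202 combinations of tract and orientation had 1 read.

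Coding sequence held few tracts, and most of its sense reads were GGA reads of Clstn1 and Kat6b. Sense reads lay in 3′ untranslated regions for 44.3%, in noncoding genes for 22.0%, in noncoding isoforms of coding genes for 15.7%, in coding sequence for 14.6% and in 5′ untranslated regions for 3.49%. Of all transcript tracts, 37.1% lie in 3′ untranslated regions and 4.06% in coding sequence. Antisense reads lay in coding sequence for 1.20%. GGA made up 1057 of the 1283 sense reads in coding sequence, at 27 tracts, followed by GAA with 94 reads at 8 tracts and AGC with 76 at 6. Clstn1 and Kat6b alone held 923 of the coding reads. Without these genes, coding sequence held 4.56% of sense reads (4.11 to 5.05). GGA then made up 134 of 360 coding reads, or 37.2% (32.2 to 42.4), in place of 82.4%.

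Of the named tracts, 8 are given with 30 bases (7 to 36) of their most read sequence, as deposited, with the repeat in capitals, because they show repeats whose flank ties them to a transcript. In these, lower-case letters are the flank. Positions are of GRCm38.
Clstn1, GGA in sense: tcgctCTCCTCCTCCTCCTCCTCCTCttcc
Kat6b, GGA in sense: ctTCCTCCTCCTCCTCCTCCTCttcctcac
Stard5, GA in antisense: CTCTCTCTCTCTCTggttttgtctccatat
Coro2a, GA in sense: CTCTCTCTCTCTCTCTCTCTCTCcacagag
Nid1, TG in antisense: CACACACACACACACACACACcctttgatc
Foxj3, TG in sense: ACACACACACACACACACAgaaacctttgt
Dennd1c, AGGT in sense: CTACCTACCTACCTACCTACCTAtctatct
Klhl33, GAAA in sense: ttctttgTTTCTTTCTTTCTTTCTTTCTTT

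Clstn1, which encodes a transmembrane protein that links cargo to kinesin, had the most read tract. It is a GGA repeat of 21 bases in coding sequence of exon 18 (chr4:149647409-149647429, plus strand) and had 667 sense reads in 205 sequences, 129 of 36 and 538 of 40 bases. Kat6b, a histone acetyltransferase gene, had 256 sense reads in 134 sequences at a GGA repeat of 20 bases in coding sequence of exon 15 (chr14:21662350-21662369, plus strand). Both are purine repeats on the sense strand, and both rest on many different sequences. Amer1, a regulator of Wnt signalling, had 41 sense reads at a GAA repeat of 84 bases in its coding sequence (chrX:95427284-95427367, minus strand).

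Tracts were ranked separately for each orientation, so reads of the other orientation at a named tract are not given. In 3′ untranslated regions the listed reads were sense where the transcript carries the strand with more G. They were antisense where it carries the other, apart from Chrnb3 below. Klhl33, Loxl2 and Chrnb3 were named as the most read tracts of an RNA unit, so the strand of their reads follows from that choice. Stard5, Nid1, Coro2a, Foxj3 and Cd3d were named for many reads in a single orientation, and most tract reads lie on the strand with more G. Their orientation therefore gives the lean no separate support. Stard5, a lipid transfer protein gene on the plus strand, carries a TC repeat of 41 bases (chr7:83641852-83641892), and the 178 reads listed there were antisense, that is, GA RNA. Nid1, which encodes the basement membrane protein nidogen, carries CA over 22 bases (chr13:13510279-13510300, plus strand) and had 100 antisense reads, which are TG RNA. Coro2a, a coronin gene, carries GA over 57 bases (chr4:46539030-46539086, minus strand) and had 110 sense reads. Foxj3, a forkhead transcription factor gene, carries TG over 49 bases (chr4:119627896-119627944, plus strand) and had 73 sense reads, and Cd3d, a subunit gene of the T cell receptor complex, had 67 at a TG repeat (chr9:44986779-44986807, plus strand). Klhl33, a kelch-like gene, had 65 sense reads at a GAAA repeat and Loxl2, a lysyl oxidase family gene, 34 at a GGAA repeat, both in 3′ untranslated regions. Reads of these tracts were mostly of 40 bases, 171 of 178 in Stard5 and 96 of 100 in Nid1. So were the tract reads as a whole, with 186712 of 256291.

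Other leading tracts lay in noncoding annotation. Echs1, a gene of mitochondrial fatty acid oxidation, had 364 antisense reads in 114 sequences at an ATTT repeat in a noncoding isoform (chr7:140113696-140113722, minus strand), and 359 of them had 40 bases. This is AAAT RNA, which holds no G. The noncoding 6820431F20Rik had 123 sense reads at an ACAG repeat, Dennd1c 87 at AGGT in 8 sequences, Herc6 74 at TG in 7 sequences, and Gm40658 77 antisense reads at a TC repeat. The leaders of CA and TC had fewer reads than those of TG (Nid1, 100) and GA (Stard5, 178). Among the tracts reported here, the most read CA tract was in Gm36981, with 61 antisense reads in 2 sequences, and the most read TC tract in Chrnb3, with 27 sense reads. For AT the leader was Gria2 with 8 reads, for AGGG Socs2 with 2, and for CG Rsad1 with 1.

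Noncoding RNAs known from work on Polycomb or from imprinted loci held few assignable tract reads. Neat1 had 12 sense reads and Meg3 4. Kcnq1ot1 had 1 sense and 8 antisense reads. Xist, Tsix, Nespas, Malat1, Airn, H19 and Rian had 0 on either strand, which allows up to 3 reads. Xist and Rian have 1 tract of 20 bases or more in their transcripts, and Tsix, Nespas, Malat1, Airn and H19 have 0. The matched part of a read leaves out its leading bases, so a shorter repeat in a transcript could also be matched. Without a tract of 20 bases, the 0 reads of these 5 genes say little about their RNA. Kcnq1ot1 has 8 tracts, and 44597 reads matched it as well as other genes, as 13360 did for Neat1 and 1959 for Meg3. Those reads could come from any matching site.

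The telomere repeat, left out above, gave 3692 reads of 20 or more repeat bases, of which 99.6% were TTAGGG RNA (99.3 to 99.8). Its share on the strand with more G was higher than that of TG, GA or any purine-only unit.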

How the data were processed

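The authors deposited whole-number read counts, not scaled to depth, for 6540936 distinct sequences (34072479 reads), without header or coordinates, so the table was treated as 1 pool. The submitters' processing notes name build mm9. The name of the deposited data holds the words uniq, noribo and nohomop, which read as unique sequences without ribosomal and homopolymer reads. It also holds WT and BR, which no label explains. The aligner and the settings of any such filters are not given in the sources used here. No read of the table has a run of a single base longer than 14 bases, which leaves out repeats that adjoin longer runs. Tracts were found with a Python 3.11.15 script (numpy 2.4.6) tested on simulated reads, and intervals are exact Clopper-Pearson (scipy 1.17.1). Base 7 to the end of each tract read was matched exactly to GENCODE M21 transcripts (GRCm38), and reads whose matches all lay on a single gene and strand were assigned to it. Regions come from the GENCODE annotation, with coding sequence before untranslated regions before noncoding isoforms.

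The planned genome placement was replaced by transcripts, because no genome was used here. Named units are those of 2 bases, the pairs of 3 and 4 bases with most reads and all purine-only units with 50 or more reads. Some loci, a tract among the 5 most read included, are not reported here. Of the others, named tracts are the 12 most read plus the most read one of each further 2-base or larger purine-only unit. Members, rules and lists were chosen with earlier results of these data known. Alternatives are given in the closing section.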

Additional observations from a re-analysis of the deposited data

How the results depend on the processing

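The values below are, in this order, the share of searched reads with a tract, of 2-base units among tract reads, of CA in the CA and TG pair, of GA in the GA and TC pair, and of purine-only units among purine-only and pyrimidine-only ones, in percent. As reported they were 0.813, 74.7, 9.46, 84.1 and 87.9. With each distinct sequence counted once they were 1.65, 79.1, 12.3, 89.8 and 92.1. In 36-base reads they were 1.07, 81.2, 8.11, 93.6 and 95.2. In 40-base reads they were 0.754, 72.3, 9.93, 78.7 and 84.1. With tracts of 24 or more bases they were 0.541, 76.00, 9.61, 82.6 and 86.7. With tracts searched from base 7 they were 0.671, 73.8, 10.04, 81.7 and 86.1. With 1 mismatch allowed they were 1.33, 72.3, 9.71, 86.5 and 89.8. Without the most read sequence of each unit they were 0.7900, 75.2, 9.56, 84.1 and 88.1. With each distinct 10-base word after the tract counted once, an alternative chosen after seeing the data, the last 4 were 84.4, 10.1, 92.8 and 94.04. The number of strand pairs whose interval left out 50% was 28 of 29 as reported. Under the alternatives, in the order given, it was 24 of 26, 22 of 22, 25 of 27, 25 of 27, 26 of 29, 32 of 33, 27 of 29 and 15 of 17. The strand of TG, of GA and of purine-only units led in every setting listed here. No paired analysis was possible because the table is a single pool without samples. Depth limits the rare units: 35 of the 86 had fewer than 50 reads. The planned placement on the genome was not run.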
